A study of Mus musculus with 6 samples.

Results

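The glucosylceramide-derived glycolipid genes are 10 genes chosen by name for their place in the pathway that starts with the deleted enzyme: Ugcg itself, 7 enzymes of the steps that follow it, and 2 proteins that carry its product between membranes. All 10 were measured, each by 1 probe set, among 16331 gene probe sets in all. The values come from Affymetrix arrays hybridised with biotin-labelled cRNA from whole mouse liver. The study set 3 arrays labelled Ugcg-deficient (427, 429 and 431, called knockout here) against 3 labelled wildtype (426, 428 and 430). Neither the allele, nor the promoter or cell type that drives the deletion, nor the strain, age and sex of the mice is named in the sources used here. The labels do not say whether each array stands for a separate mouse, so every p-value measures the spread between these arrays, which may be technical.

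Ugcg, UDP-glucose ceramide glucosyltransferase, adds glucose to ceramide on the cytosolic face of the Golgi. Its product, glucosylceramide, is carried to the lumen, where galactose is added to give lactosylceramide, the branch point of the pathway. From there a sialic acid opens the ganglio-series through GM3, a galactose opens the globo-series through Gb3, and an N-acetylglucosamine opens the lacto- and neolacto-series. In hepatocytes, as in other cells, these lipids sit mainly in the outer leaflet of the plasma membrane, and those in plasma travel on lipoproteins.

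All values are log2 expression as deposited, and every difference is knockout minus wildtype on that scale. They ran from 5.38 to 14.69 over the whole table, with array medians between 6.79 and 6.81. The 7 measured hepatocyte markers of a list of 8 read between 10.1 and 14.7, and no array lacked them. Wildtype 430 held the highest value of all 7 measured exocrine pancreas genes, and the mean of that list lay 1.86 above the wildtype mean there, against -0.936 and -0.928 on the other wildtype arrays and -1.07 to -0.817 on the knockout arrays. Knockout 427 held the highest value of 19.9% of all probe sets and knockout 429 of 19.1%, the largest shares of the 6 arrays. Knockout 429 held the highest mean of the 5 measured cholangiocyte genes of a list of 6. It was 0.376 above the wildtype mean, against -0.0592 to 0.0719 on the other arrays. The bile duct keratin gene Krt19 read 7.60 there and at most 6.46 elsewhere. Of the 5 genes, knockout 429 held the highest value of 2, and wildtype 428 also of 2. Knockout 429 also held the highest mean of the 6 Kupffer cell genes (0.221) and of the 5 measured lymphocyte genes (0.18). For the 10 glycolipid genes, differences without wildtype 430 or knockout 427 are given where either array moved them by over 1.5 times or turned their sign. Differences of the other pathway genes are given with all 6 arrays only, so their dependence on single arrays is not shown.

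None of the 10 genes passed the test between genotypes. The lactosylceramide synthase gene B4galt5 stood highest above wildtype, with a difference of 0.47, and the GM3 synthase gene St3gal5 stood lowest, with -0.27. The remaining 8 genes, Ugcg among them, differed by -0.09 to 0.10. With limma p-values adjusted by Benjamini-Hochberg over all probe sets, the adjusted p of the 10 genes ran from 0.804 to 0.998, and 0.0245% of all probe sets passed an adjusted p under 0.05. At an unadjusted limma p under 0.05 there were 2 of the 10 genes, B4galt5 and St3gal5, beside 4.99% of all probe sets. The groups did not overlap for the same 2 genes, beside 9.57% of all probe sets. Of the 10 genes 6 were higher and 4 lower, and their median difference was 0.0282, where the median of all probe sets was 0.00586. The median size of a difference, whatever its sign, was 0.0749 for the 10 genes and 0.0625 for all probe sets. In RNA from whole liver, fewer cells of a type and less RNA per cell cannot be told apart.

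**Figure D1:**
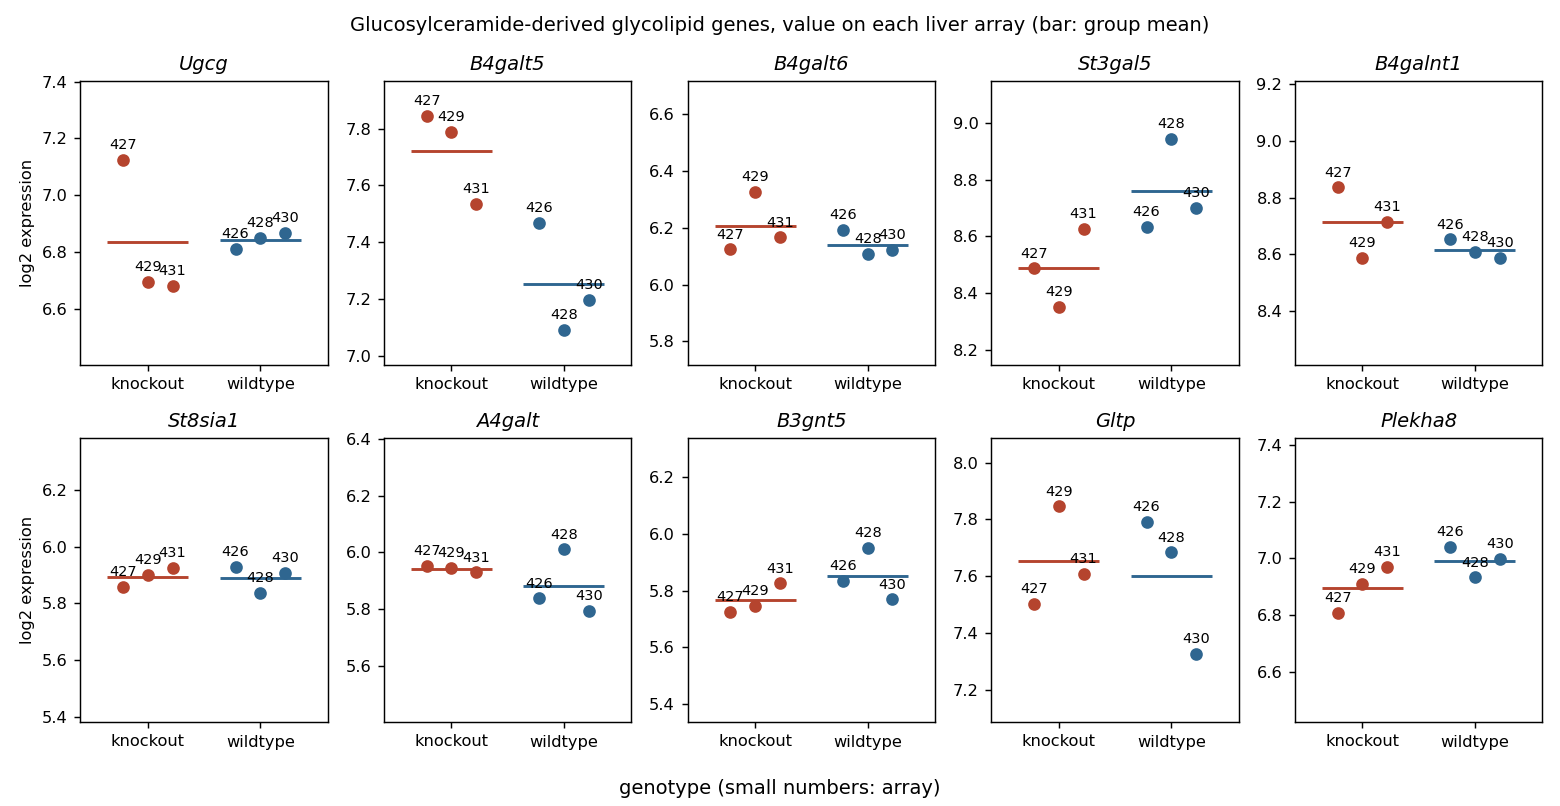
Each panel shows 1 gene, with its log2 expression on the vertical axis (every panel spans 1 log2 unit), 1 point per array numbered as in the labels, and a bar at each group mean. The 3 knockout points of B4galt5 lie above and those of St3gal5 below the 3 wildtype points, while the groups overlap in the other 8 panels.

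The reference promoters were read to describe the sequence before the start of these genes. RefSeq promoters (build GRCm38.p6) matched 8 of the 10 genes, with 9 start sites, and the 250 bases before each start were read. The GC box, the Sp1-type motif GGGCGG searched on both strands with overlaps allowed, was in 8 of the 9 windows, against 32.7% of all 32851 promoters, and the exception was the more downstream start of Plekha8. The TATA box letters TATAAA were in 0 of the 9, against 12.4%, and the E-box CACGTG in 0, against 6.02%. The letters CCAAT were in 3, against 33.8%. The median GC content was 64.0% in the 9 windows and 52.4% in all, and the shares of all promoters were not matched for GC content. The arrays measure transcripts and not promoters, so these matches are a description of the sequences and say nothing of the factors. The windows of the deleted gene and of the pair of genes whose groups did not overlap are shown 5′ to 3′ on the gene's strand, with GC box letters on either strand in capitals. B4galt5 has 7 matches, of which 1 pair overlaps, and Ugcg and St3gal5 have 2 each.
Ugcg (chr4:59189300-59189549, plus strand): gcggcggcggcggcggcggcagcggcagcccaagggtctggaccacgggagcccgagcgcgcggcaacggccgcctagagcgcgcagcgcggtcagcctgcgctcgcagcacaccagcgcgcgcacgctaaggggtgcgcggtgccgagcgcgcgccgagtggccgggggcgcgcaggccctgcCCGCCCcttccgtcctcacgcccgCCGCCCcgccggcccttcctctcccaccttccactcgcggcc
B4galt5 (chr2:167349179-167349428, minus strand): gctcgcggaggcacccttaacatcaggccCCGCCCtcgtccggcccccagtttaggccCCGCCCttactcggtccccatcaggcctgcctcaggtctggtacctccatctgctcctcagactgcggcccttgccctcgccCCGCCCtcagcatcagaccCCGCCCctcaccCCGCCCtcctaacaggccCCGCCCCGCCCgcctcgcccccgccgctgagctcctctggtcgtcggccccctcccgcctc
St3gal5 (chr6:72097358-72097607, plus strand): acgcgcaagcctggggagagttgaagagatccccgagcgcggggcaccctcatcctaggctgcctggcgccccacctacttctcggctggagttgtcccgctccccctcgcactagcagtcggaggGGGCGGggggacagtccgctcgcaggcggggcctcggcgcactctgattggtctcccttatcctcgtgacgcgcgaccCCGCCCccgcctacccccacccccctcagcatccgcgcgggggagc

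The first step of the pathway is Ugcg (Entrez gene 22234). It read 7.12, 6.70 and 6.68 on knockout arrays 427, 429 and 431, against 6.81, 6.85 and 6.87 on wildtype arrays 426, 428 and 430. The knockout arrays therefore lay on both sides of a narrow wildtype range. The SD among the knockout arrays, 0.25, was 9.02 times that among the wildtype arrays, 0.03, and 1.42% of all probe sets had a ratio at least as high. Knockout 427 stood 0.258 above the next highest array, a gap that 1.03% of all probe sets reached or passed on that array. The group difference was -0.00879 (95% interval -0.274 to 0.256, limma adjusted p = 0.998), which as a ratio of knockout to wildtype in the deposited values spans 0.827 to 1.19. The group means of Ugcg, 6.83 and 6.84, were near the array medians and not far above 6.37, a stand-in for background explained further on. At such a level the ratio may understate a change in the transcript. Without knockout 427 the difference was -0.154 (95% interval -0.327 to 0.0183, limma adjusted p = 0.991), and knockout 429 and 431 then lay 0.116 or more below every wildtype array. Without wildtype 430 it was 0.00326. Without knockout 427, 19.1% of all probe sets had groups that did not overlap. Where the probes lie relative to the deleted exons is not stated in the labels or the table, so Ugcg checks no genotype label.

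To describe the array pattern of Ugcg, 10804 named genes were ranked, all those with an SD at least 0.5 times that of Ugcg. The ranking used the root mean square difference from Ugcg over the 6 arrays, after taking off each gene's own mean. The nearest were Hnf4a, a nuclear receptor that maintains hepatocyte gene expression (0.0338), Zfp62 (0.0341), Gabpb1, a subunit of the transcription factor GABP (0.0350), the mitotic kinesin gene Kif18b (0.0378) and the homeobox gene Hoxb9 (0.0380). Hnf4a read 10.50, 10.10 and 10.09 on the knockout arrays, against 10.20, 10.21 and 10.34 on the wildtype arrays. These genes were chosen for this profile, so their peak on knockout 427 and their small differences between genotypes follow from the choice. Kif18b and Hoxb9 had means below 6.37, the level used further on as a stand-in for background. Among the other 9 pathway genes B4galnt1 was nearest to Ugcg, but at 0.113 it was further away than Hoxb9 (0.0380). On knockout 431 B4galnt1 lay above every wildtype array, where Ugcg lay below every wildtype array.

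**Figure D2:**
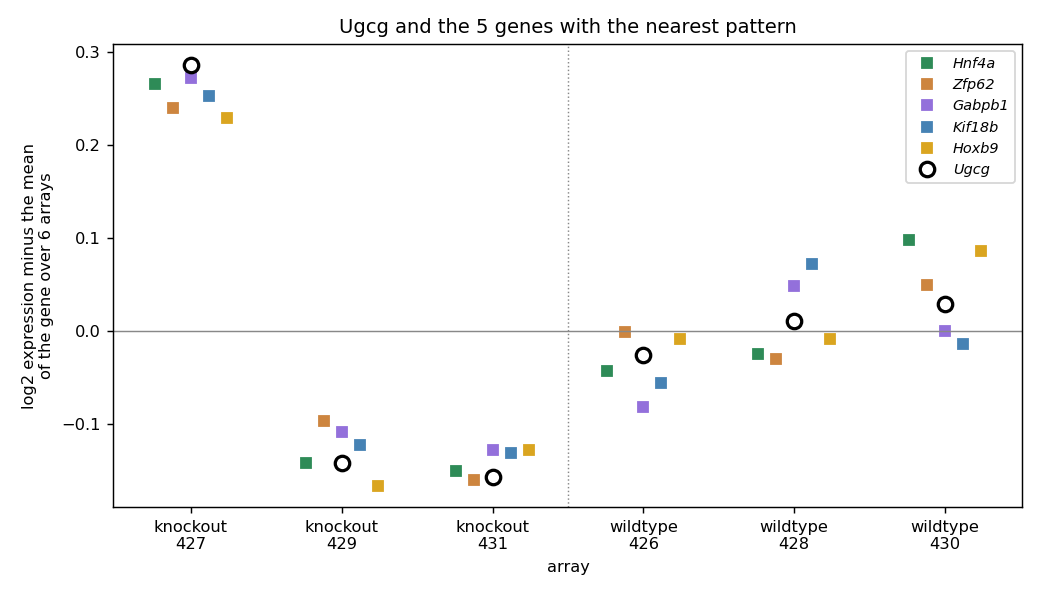
Log2 expression minus the gene's mean over the 6 arrays (vertical axis) is plotted for each array (horizontal axis, knockout left of wildtype), with Ugcg as open circles and the 5 genes nearest to it as squares, offset sideways. All 6 genes are highest on knockout 427, and knockout 429 and 431 lie below the wildtype arrays.

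The second step, lactosylceramide synthesis, is carried out by the products of B4galt5 and B4galt6, a pair of related galactosyltransferases. B4galt5 (Entrez gene 56336) read 7.85, 7.79 and 7.53 on knockout arrays 427, 429 and 431, against 7.47, 7.09 and 7.20 on wildtype arrays 426, 428 and 430. Every knockout array was above every wildtype array, but the gap between knockout 431 and wildtype 426 was 0.0649, less than the SD in either group (0.17 in knockout and 0.20 in wildtype). The difference of 0.47 was 1.39-fold (95% interval 1.15 to 1.67) with an unadjusted limma p of 0.00325 and an adjusted p of 0.804. By unadjusted p it stood at place 66 of the 16331 probe sets. Leaving out each array in turn moved the difference between 0.390, without wildtype 428, and 0.580, without wildtype 426. Without both knockout 427 and wildtype 430 it was 0.381 (95% interval 0.0534 to 0.709, limma adjusted p = 0.673).

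B4galt6 (Entrez gene 56386) read 6.12, 6.33 and 6.17 on the knockout arrays in the same order, against 6.19, 6.11 and 6.12 on the wildtype arrays. Knockout 429 was the highest array and the other 5 lay within the range 6.11 to 6.19. The difference was 0.06 (95% interval -0.112 to 0.240, limma adjusted p = 0.986). It was 0.00383 without knockout 429 and 0.105 without knockout 427. Knockout 429 was also the array with the highest means of the cholangiocyte, Kupffer cell and lymphocyte lists, whose part in this value was not tested. The difference in B4galt5 was thus 0.407 above that in B4galt6. This contrast was computed within each array with values seen, so it carries no test. Relative to the wildtype mean of the contrast it was 0.612, 0.351 and 0.258 on the knockout arrays, against 0.166, -0.130 and -0.0360 on the wildtype arrays.

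At the branch point St3gal5, the sialyltransferase that turns lactosylceramide into the ganglioside GM3, opens the ganglio-series. St3gal5 (Entrez gene 20454) read 8.49, 8.35 and 8.63 on the knockout arrays 427, 429 and 431, against 8.63, 8.94 and 8.70 on the wildtype arrays 426, 428 and 430. The groups did not overlap, but knockout 431 and wildtype 426 were 0.0068 apart. The difference was -0.27, a ratio of 0.829 (95% interval 0.704 to 0.977), with an unadjusted limma p of 0.0295 and an adjusted p of 0.952. It rested in part on single arrays. Without wildtype 428 the difference was -0.178 (95% interval -0.410 to 0.0547, limma adjusted p = 0.999). The interval also included 0 without knockout 429 (-0.202, -0.460 to 0.0564) and without knockout 427 (-0.270, -0.554 to 0.0138). It did not include 0 without knockout 431 (difference -0.340), wildtype 426 or wildtype 430. Without both knockout 427 and wildtype 430 the difference was -0.300 (95% interval -0.609 to 0.00968, limma adjusted p = 0.756).

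B4galt5 and St3gal5 encode successive steps, and their values ran in opposite directions. The contrast of B4galt5 minus St3gal5 within each array, relative to its wildtype mean, was 0.867, 0.944 and 0.415 on the knockout arrays, against 0.343, -0.347 and 0.00410 on the wildtype arrays. Its mean was 0.742 on the knockout arrays, with an SD of 0.286 there and 0.345 on the wildtype arrays. Because the pair was picked for its values, the contrast is a description with no test. Of 9 lists of cell type markers, 1 also had array means that did not overlap between the groups, beside 9.57% of all single probe sets. The mean of 6 measured adipose tissue and muscle genes of a list of 8, relative to wildtype, was 0.109 to 0.577 on the knockout arrays and -0.0495 to 0.0689 on the wildtype arrays. Its summed level on the linear scale was 655 to 960 on the knockout arrays and 558 to 618 on the wildtype arrays. This list pools adipose tissue and muscle genes, so it does not stand for a single cell type. Of the 6 genes, knockout 427 held the highest value of 3, all muscle genes. Knockout 431 held that of 2, both adipose genes, and wildtype 430 that of 1, a muscle gene. The muscle actin gene Acta1 read 8.48 on knockout 427 and at most 6.63 elsewhere, and on knockout 429 it read 6.28, below every wildtype array. The fatty acid binding protein gene Fabp4 read 8.99 on knockout 431 and at most 7.97 elsewhere. The part of either tissue in the values of B4galt5 and St3gal5 was not tested. The 7 hepatocyte markers averaged 0.00651 to 0.0719 on the knockout arrays and -0.0151 to 0.0192 on the wildtype arrays, and the groups overlapped there as in the other 7 lists.

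Later enzymes of the ganglio-series are B4galnt1, which adds N-acetylgalactosamine to make GM2 and GD2, and St8sia1, which adds a second sialic acid to GM3 to make GD3. B4galnt1 (Entrez gene 14421) read 8.84, 8.59 and 8.71 on the knockout arrays, against 8.65, 8.61 and 8.59 on the wildtype arrays. Knockout 427 and 431 were above, and knockout 429 just below, the 3 wildtype arrays, which spanned less than the knockout arrays. The difference was 0.10 (95% interval -0.0868 to 0.279, limma adjusted p = 0.982), and it was 0.0345 without knockout 427 and 0.160 without knockout 429. St8sia1 (Entrez gene 20449) read 5.86, 5.90 and 5.93 on the knockout arrays, against 5.93, 5.84 and 5.91 on the wildtype arrays. It was the steadiest of the 10 genes, with a range of 0.0913 over all arrays where the median range of all probe sets was 0.277. Its difference of 0.00439 had a 95% interval of -0.148 to 0.157 (limma adjusted p = 0.998), and it was 0.0226 without knockout 427 and 0.0123 without wildtype 430.

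A4galt, which opens the globo-series by making Gb3, and B3gnt5, which opens the lacto- and neolacto-series by making Lc3, compete with St3gal5 for lactosylceramide. A4galt (Entrez gene 239559) read 5.95, 5.95 and 5.93 on the knockout arrays, all within the wildtype values of 5.84, 6.01 and 5.79. The difference was 0.06 (95% interval -0.114 to 0.237, limma adjusted p = 0.987), and it was 0.0184 without wildtype 430 and 0.126 without wildtype 428. B3gnt5 (Entrez gene 108105) read 5.72, 5.75 and 5.83 on the knockout arrays, against 5.83, 5.95 and 5.77 on the wildtype arrays. Knockout 427 and 429 were below the wildtype range and knockout 431 inside it, with a difference of -0.09 (95% interval -0.257 to 0.0857, limma adjusted p = 0.983). Without wildtype 428 that difference was -0.0358. The groups overlapped for both genes. St8sia1, A4galt, B3gnt5 and B4galt6 had means at or below 6.37, the 95th percentile of 35 olfactory receptor probe sets used as a stand-in for background. Whether their values hold signal above background was not tested.

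The glycolipid carriers are Gltp, a cytosolic protein that moves glycolipids between membranes, and Plekha8, also called FAPP2, which takes glucosylceramide from its site of synthesis to the later Golgi. Gltp (Entrez gene 56356) read 7.50, 7.85 and 7.61 on the knockout arrays, against 7.79, 7.68 and 7.33 on the wildtype arrays. It varied within each genotype (SD 0.18 in knockout and 0.24 in wildtype), and wildtype 430 was the lowest array. The difference of 0.05 (95% interval -0.248 to 0.352, limma adjusted p = 0.996) was -0.0845 without wildtype 430, -0.0446 without knockout 429 and 0.127 without knockout 427. Plekha8 (Entrez gene 231999) read 6.81, 6.91 and 6.97 on the knockout arrays, against 7.04, 6.93 and 7.00 on the wildtype arrays. Knockout 427 and 429 were below the wildtype range, and the difference was -0.09 (95% interval -0.262 to 0.0735, limma adjusted p = 0.982). Without knockout 427 it was -0.0500.

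**Figure D3:**
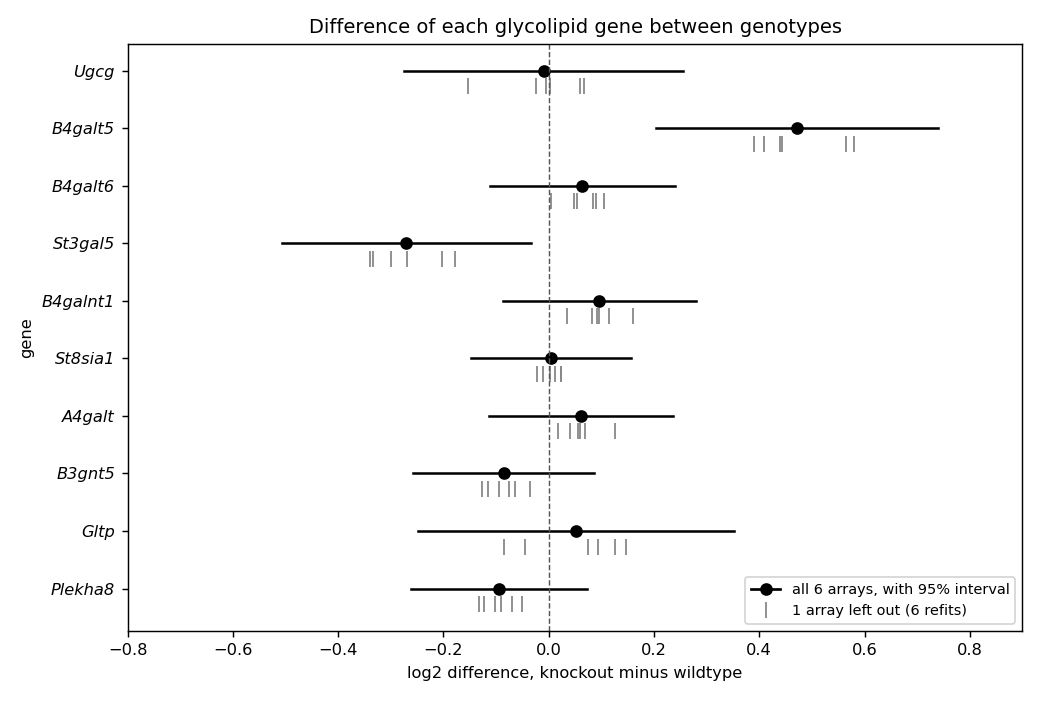
Black points give the log2 difference, knockout minus wildtype (horizontal axis), of each gene with its limma 95% interval, and grey ticks under each give the 6 differences with 1 array left out. The interval is clear of 0 for B4galt5 (0.204 to 0.739) and St3gal5 (-0.507 to -0.0338) before adjustment over all probe sets, and the ticks of Ugcg, Gltp and St8sia1 lie on both sides of 0.

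The intervals give the size of difference in the deposited values that these arrays could have missed. They are read here for the 6 genes above the 6.37 limit, since near background a narrow interval does not bound a change in the transcript. All 6 lay within 1 log2 unit of 0, that is within a 2-fold change, and 4 of the 6 lay within 0.5, or 1.41-fold. Those reaching past 0.5 were B4galt5 at its upper end (0.739) and St3gal5 at its lower end (-0.507). Ugcg (group means 6.83 and 6.84) and Plekha8 (6.90 and 6.99) lay close above the 6.37 limit. Their values may have little room to fall, so their intervals may not bound a loss of transcript. The standard errors of the 10 differences ran from 0.0672 to 0.132, around the median of 0.0847 for all probe sets.

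The rest of the pathway was described with 4 lists of 49 genes, of which 44 had a named probe set. None of the 44 passed, beside 0.0245% of all probe sets (smallest limma adjusted p = 0.982), and 1 of them, 2.27%, had an unadjusted p under 0.05, beside 4.99% of all probe sets. Above 0 lay 24 of the 44, or 54.5%, beside 52.6% of all probe sets, and the median difference was 0.0106. The means of 14 of the 44 lay at or below 6.37, among them Gbgt1, B3galnt1, Fut1 and Ugt8a of the genes named here. Groups did not overlap for 6 of the 44, of which 5 were higher and 1 lower, where 5.1% of all probe sets were higher and 4.47% lower without overlap.

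Of 23 genes of later steps, 14 were higher and 9 lower, with a median of 0.0114. The smallest p-values belonged to Gbgt1, the Forssman glycolipid synthase (0.14), B3galnt1, which makes globoside (-0.14), the fucosyltransferase gene Fut1 (-0.10) and the sialyltransferase gene St6galnac6 (0.09). Gbgt1 read 6.13, 6.18 and 6.10 on the knockout arrays, against 5.94, 6.08 and 5.98 on the wildtype arrays, without overlap (limma adjusted p = 0.982), but its level was at or below the background limit. The largest differences of the list were those of St3gal1 (0.245, limma adjusted p = 0.983) and St3gal4 (0.222, limma adjusted p = 0.984). The groups overlapped for both. St3gal1 read 9.27, 8.79 and 8.68 on the knockout arrays, against 8.40, 8.42 and 9.18 on the wildtype arrays. St3gal4 read 9.06, 8.80 and 9.06, against 8.43, 8.54 and 9.29. Wildtype 430 was the highest wildtype array for both genes, and its part was not tested.

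Ceramide that is not glucosylated can enter the galactosylceramide branch, through Ugt8a, the galactosylceramide synthase, and Gal3st1, which adds sulfate to make sulfatide. Neither gene passed the test. The groups did not overlap for either, beside 9.57% of all probe sets. The gap was 0.0117 for each, less than the SD among the knockout arrays (0.0792 for Gal3st1 and 0.0989 for Ugt8a). Gal3st1 read 6.68, 6.80 and 6.66 on the knockout arrays, against 6.64, 6.57 and 6.54 on the wildtype arrays, a difference of 0.13 (95% interval -0.0378 to 0.296, limma adjusted p = 0.982). Ugt8a read 5.93, 6.11 and 5.96 on the knockout arrays, against 5.91, 5.91 and 5.91 on the wildtype arrays, a difference of 0.09 (95% interval -0.0754 to 0.260, limma adjusted p = 0.982). Both genes were highest on knockout 429, the array with the highest means of the cholangiocyte, Kupffer cell and lymphocyte lists. The part of those cells was not tested. The level of Ugt8a was also at or below the background limit.

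Of 9 measured genes of sugar donor supply, 2 were higher and 7 lower (median -0.0703). Ugp2, which makes UDP-glucose, the sugar donor of the Ugcg reaction, read 10.60, 10.25 and 10.60 on the knockout arrays, against 10.77, 10.64 and 10.69 on the wildtype arrays. Its groups did not overlap, with a difference of -0.22 (95% interval -0.453 to 0.0179, limma adjusted p = 0.982), and knockout 429 was again the extreme array, here the lowest. The sialic acid genes Cmas, which activates sialic acid (-0.11), and Nans, which makes its phosphate (0.08), differed in sign, and Uap1, which makes UDP-N-acetylhexosamine, differed by 0.08.

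Of 10 measured genes of ceramide synthesis and delivery and of glycolipid breakdown, 6 were higher and 4 lower (median 0.0399). Degs1, the desaturase of the last step of ceramide synthesis, read 10.56, 10.60 and 10.41 on the knockout arrays, against 10.33, 10.37 and 10.34 on the wildtype arrays. The difference of 0.17 had a 95% interval of 0.00473 to 0.344, an unadjusted limma p of 0.0451 and an adjusted p of 0.982. Sptlc1, a subunit of serine palmitoyltransferase (0.22), Cert1, the ceramide transfer protein (0.09), and Psap, the saposin precursor (0.07), followed and did not pass.

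**Figure D4:**
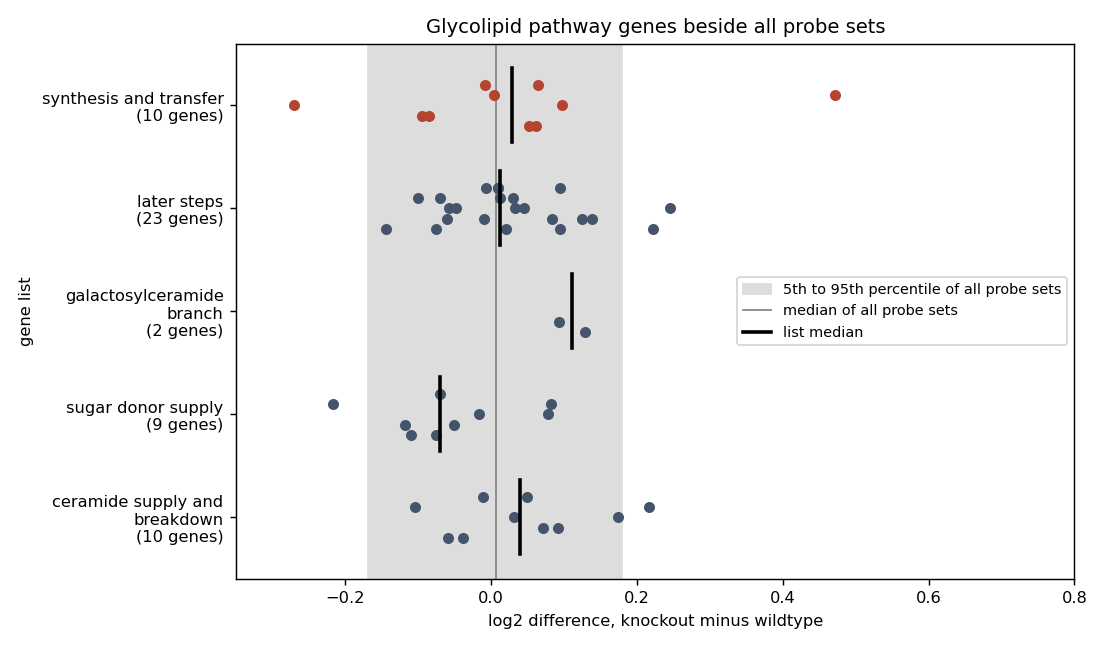
Each point is 1 gene and the horizontal axis its log2 difference, knockout minus wildtype, with 1 row for the 10 glycolipid genes and 1 for each of 4 pathway lists, black bars at the list medians, and a grey band from the 5th to the 95th percentile of all probe sets (-0.169 to 0.179). B4galt5 and St3gal5 lie outside the band in the top row, and the other 8 genes lie inside it.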

How the data were processed

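Liver RNA of 3 Ugcg-deficient and 3 wildtype samples was measured on Affymetrix arrays from biotinylated cRNA, per the labels' protocols. The deposited table holds log2 expression values, a reading taken from their range (5.38 to 14.69). How the authors corrected background, normalized and summarised the probes, and with which software, is not given in the sources used here. No detection calls were used. The number of arrays limits the precision. Of 16395 probe sets, 64 AFFX controls were left out. The platform annotation gave 1 symbol for 15644 of the other 16331, several for 0 and none for 687.

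Genotypes were taken from the labels and compared by limma 3.58.1 in R 4.3.3 (lmFit and eBayes, two-sided, 4 residual and 4.85 prior degrees of freedom), adjusted by Benjamini-Hochberg over all 16331 probe sets, with a threshold of 0.05. The fitting steps were tried on simulated data with independent normal noise for each probe set. Those data held no shifts shared by many genes on 1 array, so they do not bear on such shifts here. The members and lists were chosen with earlier results of these data known. Named genes were the 10 members, the 4 genes of each list with the smallest p, and the 5 genes nearest to Ugcg among those with at least 0.5 times its SD; single markers were named where 1 array stood more than 1 log2 unit above all others. Of those markers, the exocrine pancreas genes are given only by list. St3gal1 and St3gal4 of the later steps were named for the size of their differences. Alternatives were quantile normalization, median centring, filters on dim probe sets, an intensity trend with robust variance, array weights, and leaving out arrays. Python 3.11.15 and matplotlib 3.10.9 drew the figures.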

Additional observations from a re-analysis of the deposited data

How the results depend on the processing

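None of the 10 genes and none of the 44 other pathway genes passed an adjusted p under 0.05 in any of the 13 limma refits, so no call was gained; at an unadjusted p under 0.05 there were 1 or 2 of the genes in each refit, beside 3.58% to 6.95% of all probe sets tested there. Of 122 refitted differences of the 10 genes, 113 kept their sign. The sign turned for St8sia1 after quantile normalization (-0.00342) and for Gltp without both wildtype 430 and knockout 427 (-0.00977). With 1 array left out, the difference of Ugcg ran from -0.154 to 0.0675, that of Gltp from -0.0845 to 0.147 and that of St8sia1 from -0.0224 to 0.0233; the other 7 genes kept their sign, B4galt5 from 0.390 to 0.580 and St3gal5 from -0.340 to -0.178. The count over all probe sets, 4 as deposited, was 8 with array quality weights, 8 without both wildtype 430 and knockout 427, and 0 to 4 with 1 array left out; the cause was not tested. The filters on dim probe sets kept 6 of the 10 genes, so they gave no value for B4galt6, St8sia1, A4galt and B3gnt5. No paired analysis was run because the labels name no pairs of arrays, and whether the arrays were paired is not known. With 3 arrays in each genotype, the median 95% interval extended 0.192 on each side of the difference.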
